A study of Homo sapiens with 9 samples.

Results

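The 10 genes described here are the myocardin gene, its DNA-binding partner and 8 genes of the smooth muscle contractile apparatus: MYOCD, SRF, ACTA2, ACTG2, TAGLN, CNN1, MYLK, MYH11, CALD1 and TPM2. They were taken by symbol from a table of read counts for 58299 gene identifiers, and all 10 were found and passed the filter on low counts. The counts come from 9 RNA-seq libraries of AC16 cells, a dividing human line that was derived by fusing ventricular heart cells with transformed fibroblasts. Vehicle cells were kept for 72 h in 0.1% DMSO (3 libraries), and treated cells were kept in CDDO-Me (bardoxolone methyl, an activator of the transcription factor NRF2) at 100 nM for 24 h (3 libraries) or 72 h (3 libraries). No genotype was altered, and every library comes from the same cell line. A 24 h vehicle group was not analysed here, so at 24 h treatment and culture time cannot be told apart, and both treated groups are compared with the same 3 vehicle libraries.

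Myocardin is a coactivator that does not bind DNA by itself. It docks on SRF, a transcription factor that recognises the CArG box, and together they switch on the actins, myosins and actin-binding proteins that let smooth muscle contract. Myocardin-related factors (the products of MRTFA and MRTFB) use the same docking site when actin assembles, and the ternary complex factors (ELK1, ELK3, ELK4) compete for it on immediate early genes. In heart, the same contractile genes are known as markers of vascular smooth muscle and of activated fibroblasts.

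After CDDO-Me, MYOCD was the most reduced of the 10 genes at both times, falling 3.60-fold at 24 h and 6.19-fold at 72 h. The smooth muscle actin gene ACTA2 fell at both times, ACTG2 and MYLK fell at 72 h, and SRF and CALD1 fell at 24 h, while their 72 h values did not pass the test. CNN1 went the other way, being higher at 72 h than in either other group. The remaining 3 (TAGLN, MYH11 and TPM2) passed in none of the comparisons.

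Short stretches of regulatory sequence are shown because a CArG box is where SRF and myocardin meet the gene. The box was searched as 2 cytosines, 6 bases that are each A or T, and 2 guanines, a pattern that reads the same on both strands, in the 250 bases before each RefSeq start (GRCh38.p14). Of the 10 genes, 7 had entries (13 starts), and MYOCD, TAGLN and MYH11 had none in that table. A complete box stood before a start of SRF, ACTG2 and MYLK, 3 of 13 starts, against 1.16% of 35116 starts of all genes. With 1 mismatch allowed, 6 of 13 starts held a match, against 16.8% of all starts, and ACTA2 was then among them. Windows of 30 bases follow, 5′ to 3′ on the gene's own strand, with the box or its near match in capitals.
SRF, chr6:43171239-43171268, + strand, 2 boxes: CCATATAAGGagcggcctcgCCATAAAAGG
ACTG2, chr2:73892888-73892917, + strand: gaaaaaaccaCCTTATATGGtaatattgct
ACTG2, chr2:73892925-73892954, + strand: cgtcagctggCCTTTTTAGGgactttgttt
MYLK, chr3:123620623-123620652, - strand: ataaaccatcCCTTTTATGGgagttgaagc
ACTA2, chr10:88952875-88952904, - strand, 1 mismatch: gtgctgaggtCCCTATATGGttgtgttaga
ACTA2, chr10:88952825-88952854, - strand, 1 mismatch: tgtctttgctCCTTGTTTGGgaagcaagtg
The SRF window lies just upstream of the gene as the deposited table draws it. Both ACTA2 windows and the first ACTG2 window fall inside their gene and outside its exons there. The other ACTG2 window and the MYLK window overlap an exon of their own gene, and the MYLK start is the internal one near the gene's 3′ end, where the short product telokin begins. CNN1 and TPM2 had no match before their listed starts, even with 1 mismatch, and the near matches of CALD1 are not shown. Boxes outside the 250 bases were not searched, and whether a match goes with a fall was not tested. A match is a description of letters and no evidence of binding.

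Total counts ran from 16898977 to 27910031 per library. Values below are CPM (reads on a gene relative to the library's total after TMM correction), and ± is the SD of 3 libraries beside a level and the standard error beside a log2 fold change. A gene passed at an adjusted p under 0.05 over 14965 tested genes. CDDO-Me 24 h replicate 3, the deepest library, differed most from its group, with a biological coefficient of variation of 19.9 and 20.9% against the other replicates, which differed by 6.38%. For DMSO replicate 1 the same measure was 12.1 and 13.9%, where replicates 2 and 3 differed by 7.79%.

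Markers were checked to see what the cells express. Of 10 cardiomyocyte markers, MYH6, MYH7, MYL2 and RYR2 had 0 reads in all 9 libraries, 7 had at most 3 reads in any library, and the list summed to 0.439 to 0.729 CPM per kb of exon in vehicle, 0.256 to 0.662 at 24 h and 0.192 to 0.304 at 72 h. All 8 fibroblast markers were tested, and they summed to 1436 to 1566, 1095 to 1885 and 1642 to 1693 CPM per kb. Of 6 smooth muscle defining markers, which include CNN1 and MYH11, KCNMB1 had 0 reads, and the list summed to 40.3 to 55.2, 32.8 to 49.3 and 42.2 to 42.8. All 6 pericyte markers were tested and summed to 60.3 to 74.4, 53.6 to 68.8 and 57.5 to 60.8. Of 5 endothelial markers 4 were tested, and the list summed to 2.65 to 3.12 in vehicle, 2.09 to 2.40 at 24 h and 1.53 to 1.63 at 72 h. That order is also the order of MYOCD and ACTG2, but nearly all of the endothelial sum came from TEK alone. By group means, KDR of the same list followed the order at low counts, while PECAM1 and VWF were highest at 24 h. The sum is therefore mainly a reading of TEK and not of the list. Single markers of other cell types moved as well. FAP (−1.28 ± 0.28, adjusted p 0.0294) and PDGFRA (−0.76 ± 0.19, adjusted p 0.0376) of the fibroblast list, RGS5 of the pericyte list (−0.76 ± 0.21, adjusted p 0.0425) and TEK of the endothelial list (−0.83 ± 0.14, adjusted p 0.00267) fell at 72 h. NOTCH3 of the pericyte list rose at 24 h (0.83 ± 0.15, adjusted p 0.00922) and at 72 h (1.13 ± 0.15, adjusted p 0.000353). The fibroblast list did not move as a whole: at 72 h 3 of 8 markers had a negative log2 fold change (median 0.06). Negative values were found for 4 of 6 pericyte markers (median −0.21) and 3 of 4 tested endothelial markers (median −0.93). Fully apart and lower at 72 h were 3 fibroblast, 3 pericyte and 3 endothelial markers (15.2% of tested genes). Fully apart and higher were 2, 2 and 0 (15.5%). Of the lower endothelial markers, PECAM1 and KDR had at most 14 and 17 reads in any library. The part of these markers in the results was not tested. The label of the line as a heart muscle cell is therefore not met by most of its defining sarcomere markers. Of that list only TTN was tested, with 97 to 170 reads per library. Part of the smooth muscle set is present, mostly as SMTN and CNN1 (32.9 and 11.4 CPM per kb in vehicle). In bulk RNA, fewer cells with a transcript and less transcript per cell cannot be told apart.

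Per length of exon, the 10 genes spanned more than 3 orders of magnitude in vehicle cells. TPM2, which encodes a tropomyosin that lies along actin filaments, was highest at 271.5 ± 34.6 CPM per kb. TAGLN (68.3 ± 21.5) and CALD1 (67.6 ± 3.23) came next, and their libraries overlapped. SRF stood at 28.7 ± 1.87 CPM per kb, clear of its neighbours. CNN1 (11.4 ± 0.719), ACTG2 (9.84 ± 4.73) and MYLK (9.41 ± 1.10) overlapped in sequence. ACTA2 followed at 3.44 ± 1.06, MYOCD at 1.79 ± 0.456, and MYH11, the smooth muscle myosin heavy chain and the most specific of these markers, at 0.0506 ± 0.0150 CPM per kb. After 72 h of CDDO-Me the order was the same except that CALD1 stood above TAGLN and MYLK above ACTG2, and no neighbours overlapped. The length used is the union of all exons, so long genes with many alternative exons, such as MYLK (22167 bases) and MYOCD (8875 bases), are understated.

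**Figure D1:**
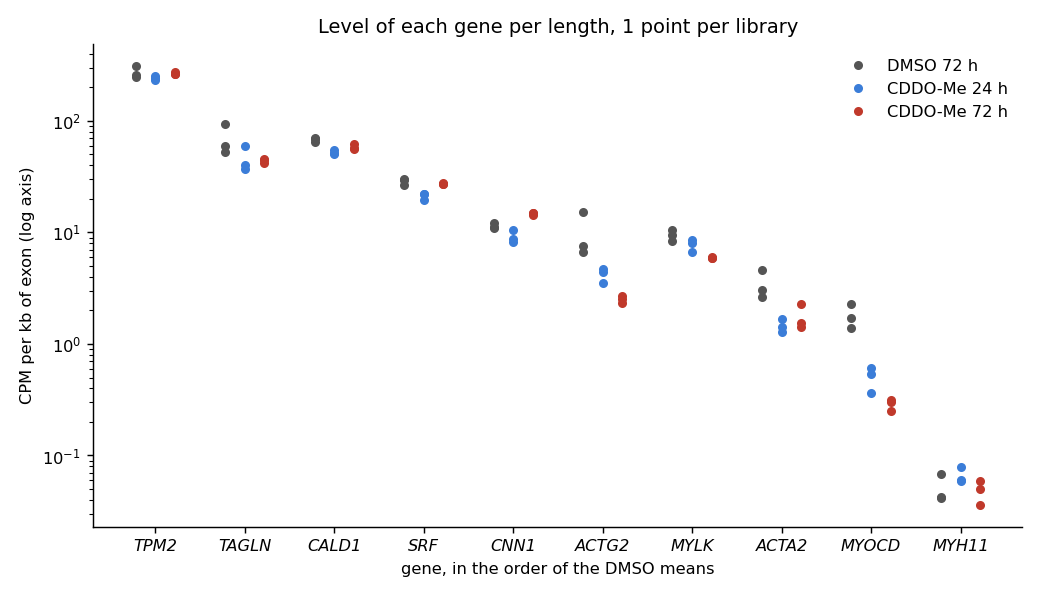
Level of each of the 10 genes as CPM per kb of exon (log axis), 1 point per library, coloured by group and ordered by the vehicle means. TPM2 stands at 271.5 and MYH11 at 0.0506 CPM per kb in vehicle cells, and the coloured points separate most for MYOCD and ACTG2.

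MYOCD (ENSG00000141052, chromosome 17, 12665890 to 12768949, GRCh38) held 20.3, 15.1 and 12.3 CPM in the vehicle libraries, 5.36, 4.81 and 3.22 at 24 h, and 2.66, 2.23 and 2.78 at 72 h. Every treated library was below every vehicle library, and every 72 h library below every 24 h library. The log2 fold change against DMSO was −1.85 ± 0.22 at 24 h (adjusted p 0.000313) and −2.63 ± 0.23 at 72 h (adjusted p 9.62e-06). Both calls held under all 17 alternative settings, with values no nearer to 0 than −1.43 and −2.42. Between 24 h and 72 h the difference of −0.78 ± 0.24 did not pass (adjusted p 0.170). It passed without CDDO-Me 24 h replicate 3 (−0.98, adjusted p 0.00991), the 24 h library with the lowest MYOCD, and with no filter on low counts (adjusted p 0.0201). An antisense gene, ARHGAP44-AS1, shares 704 exon bases with MYOCD but had at most 2 reads in any library.

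SRF (ENSG00000112658, chromosome 6, 43171299 to 43181507) held 125, 126 and 112 CPM in vehicle, 93.4, 82.0 and 92.2 at 24 h, and 113, 116 and 115 at 72 h. The 24 h libraries lay below both other groups, which overlapped. SRF fell by 0.44 ± 0.08 on the log2 scale at 24 h (1.35-fold lower, adjusted p 0.00845), was at −0.07 ± 0.08 at 72 h (adjusted p 0.705), and rose by 0.37 ± 0.08 from 24 h to 72 h (adjusted p 0.0386). The call at 24 h ended without DMSO replicate 2 (adjusted p 0.0550) and with only these groups in the fit (0.0646). The rise from 24 h to 72 h ended with limma-voom and when DMSO replicate 2, the first or second 24 h library or a single 72 h library was left out (adjusted p up to 0.203). MYOCD reads per 100 SRF reads were 16.3, 12.01 and 11.0 in vehicle, 5.74, 5.87 and 3.49 at 24 h, and 2.35, 1.92 and 2.41 at 72 h. This ratio is taken within a library and needs no scaling.

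**Figure D2:**
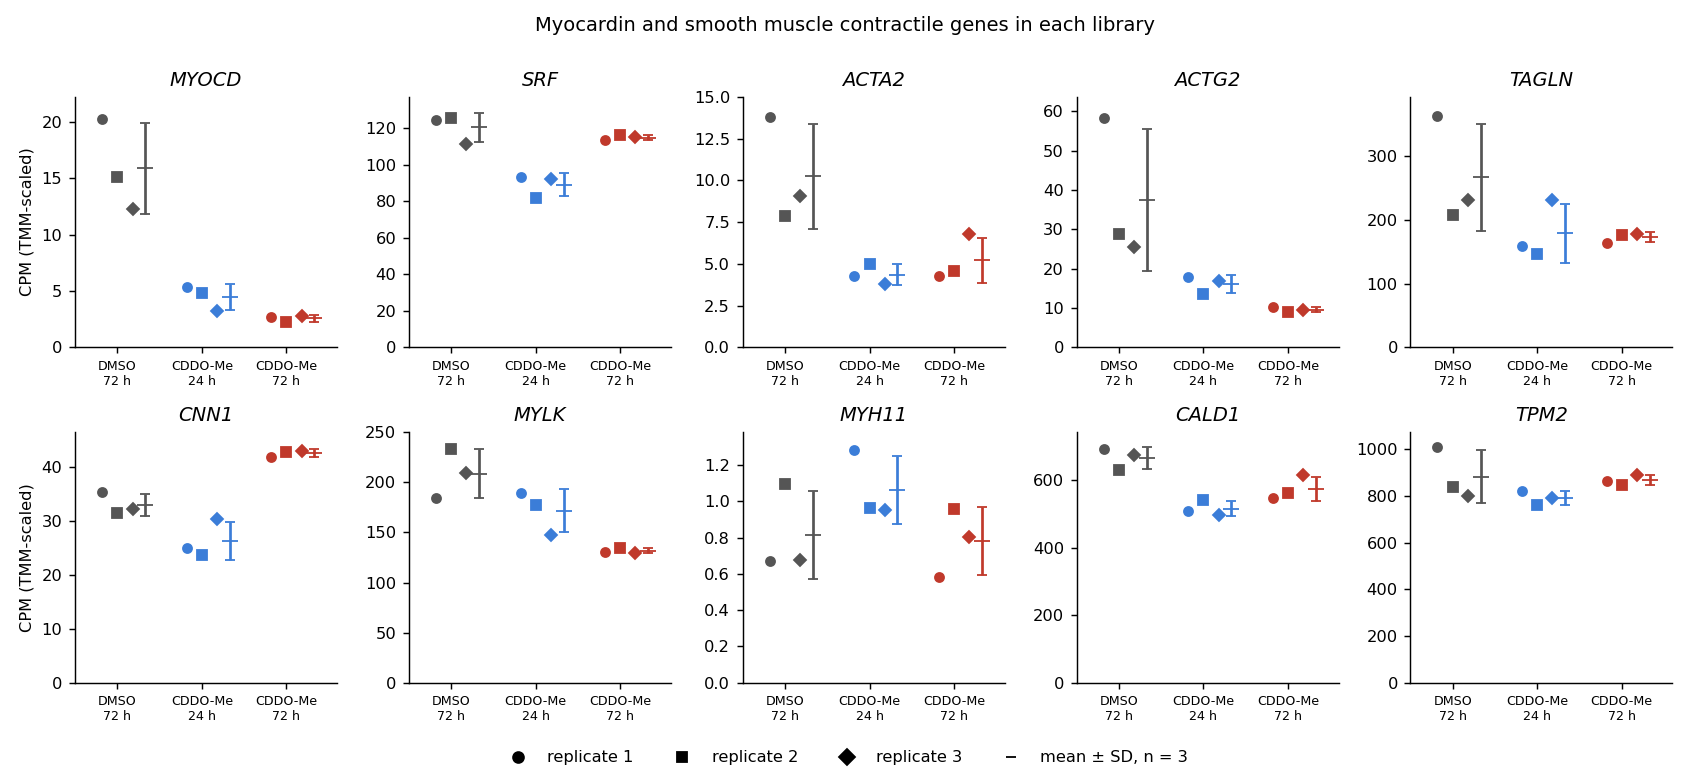
CPM of each of the 10 genes (1 panel per gene, linear axes from 0) in the 9 libraries, with replicate number as the symbol and the mean ± SD (n = 3) as a bar to the right of each group. MYOCD and ACTG2 step down from vehicle to 24 h to 72 h, SRF dips at 24 h, and CNN1 is highest at 72 h (41.8 to 43.0 CPM).

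The alpha smooth muscle actin gene ACTA2 (ENSG00000107796, chromosome 10, 88935074 to 88991339) held 13.8, 7.86 and 9.05 CPM in vehicle, 4.25, 5.01 and 3.80 at 24 h, and 4.26, 4.56 and 6.78 at 72 h. All 6 treated libraries were below all vehicle libraries, and the treated groups overlapped. ACTA2 fell by 1.24 ± 0.24 at 24 h (2.36-fold lower, adjusted p 0.0116), a call that held under all 17 settings. It fell by 0.98 ± 0.23 at 72 h (1.97-fold lower, adjusted p 0.0224). That call ended without DMSO replicate 1 (−0.70, adjusted p 0.0963), the highest vehicle library, and without CDDO-Me 72 h replicates 1 (adjusted p 0.130) or 2 (adjusted p 0.120). ACTA2 shares 380 exon bases with FAS and 516 with ACTA2-AS1 on the opposite strand, and reads from those stretches cannot be told apart because the kit does not keep strand.

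The gamma smooth muscle (enteric) actin gene ACTG2 (ENSG00000163017, chromosome 2, 73892314 to 73919865) held 58.3, 28.7 and 25.6 CPM in vehicle, 17.9, 13.5 and 16.8 at 24 h, and 10.2, 8.91 and 9.56 at 72 h. The 3 groups did not overlap, and DMSO replicate 1 was far above the other vehicle libraries. At 72 h ACTG2 fell by 1.97 ± 0.30 (3.92-fold lower, adjusted p 0.00426), and this held under all 17 settings. At 24 h it was at −1.22 ± 0.28 and did not pass (adjusted p 0.0699). Without DMSO replicate 1 the values were nearer to 0 but passed at both times, at −0.75 (adjusted p 0.0121) and −1.50 (adjusted p 5.39e-05). DESeq2 and limma-voom called it at 24 h with all libraries (adjusted p 0.0111 and 0.0459). The change from 24 h to 72 h, −0.75 ± 0.30, did not pass (adjusted p 0.329) but did without DMSO replicate 1 (adjusted p 0.0104), a library outside that comparison that enters its estimate of spread.

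Among 6 actin genes, ACTB and ACTG1, the cytoskeletal actins, made up nearly all of the per-length level. The smooth muscle pair ACTA2 and ACTG2 together held 0.315, 0.186 and 0.195% in vehicle, 0.149, 0.144 and 0.117% at 24 h, and 0.0834, 0.0806 and 0.101% at 72 h. The 3 groups did not overlap in this share. The skeletal and cardiac actins ACTA1 and ACTC1 did not pass the filter on low counts. Within the smooth muscle pair, ACTG2 reads per ACTA2 read were 4.22, 3.65 and 2.83 in vehicle, 4.22, 2.70 and 4.43 at 24 h, and 2.39, 1.95 and 1.41 at 72 h, so the 72 h libraries lay below all others. With 3 against 3 libraries an exact permutation test cannot go below 0.10, and none is given for these ratios.

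Of the thin filament binding genes, CNN1 (calponin 1, which damps myosin activity; ENSG00000130176, chromosome 19, 11538717 to 11550323) held 35.4, 31.5 and 32.2 CPM in vehicle, 25.0, 23.7 and 30.3 at 24 h, and 41.8, 42.9 and 43.0 at 72 h. The 3 groups did not overlap: all 24 h libraries were below vehicle and all 72 h libraries above it. CNN1 was at −0.32 ± 0.10 at 24 h (adjusted p 0.158), rose by 0.37 ± 0.10 at 72 h (adjusted p 0.04995), and rose by 0.69 ± 0.10 from 24 h to 72 h (1.61-fold, adjusted p 0.00477). The rise over vehicle was at the threshold and ended when a single DMSO or 72 h library was left out (adjusted p up to 0.190), with the size factors of DESeq2 (0.0539) and with limma-voom (0.0521). The rise from 24 h to 72 h held under all 17 settings. Without CDDO-Me 24 h replicate 3 the 24 h value passed (−0.44, adjusted p 0.00532).

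TAGLN (transgelin or SM22, an actin cross-linker; ENSG00000149591, chromosome 11, 117199321 to 117204782) held 364, 208 and 231 CPM in vehicle, 159, 146 and 232 at 24 h, and 164, 176 and 178 at 72 h. All 72 h libraries were below vehicle, whereas the 24 h group overlapped vehicle through replicate 3. The log2 fold changes of −0.58 ± 0.24 and −0.63 ± 0.24 did not pass (adjusted p 0.346 and 0.191). Without DMSO replicate 1 they were −0.29 and −0.34 (adjusted p 0.438 and 0.323). TAGLN passed at both times once DMSO replicate 1 and CDDO-Me 24 h replicate 3, its highest library in each group, were both left out (−0.53 and −0.35, adjusted p 1.40e-06 and 0.000123). From 24 h to 72 h it was at −0.05 ± 0.24 (adjusted p 0.951), and at 0.18 (adjusted p 0.0394) without both libraries. PCSK7 shares 446 exon bases with TAGLN on the opposite strand and had 682 to 1073 reads.

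ACTG2 and CNN1 thus ran in opposite directions at 72 h. ACTG2 reads per CNN1 read were 1.65, 0.912 and 0.795 in vehicle, 0.716, 0.572 and 0.556 at 24 h, and 0.244, 0.208 and 0.222 at 72 h, with no overlap between groups. The separation of 72 h from vehicle follows from the levels of the 2 genes given above and is no separate result. TAGLN reads per CNN1 read were 8.03 ± 1.98 (SD, n = 3) in vehicle, 6.72 ± 0.802 at 24 h and 4.06 ± 0.116 at 72 h.

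**Figure D3:**
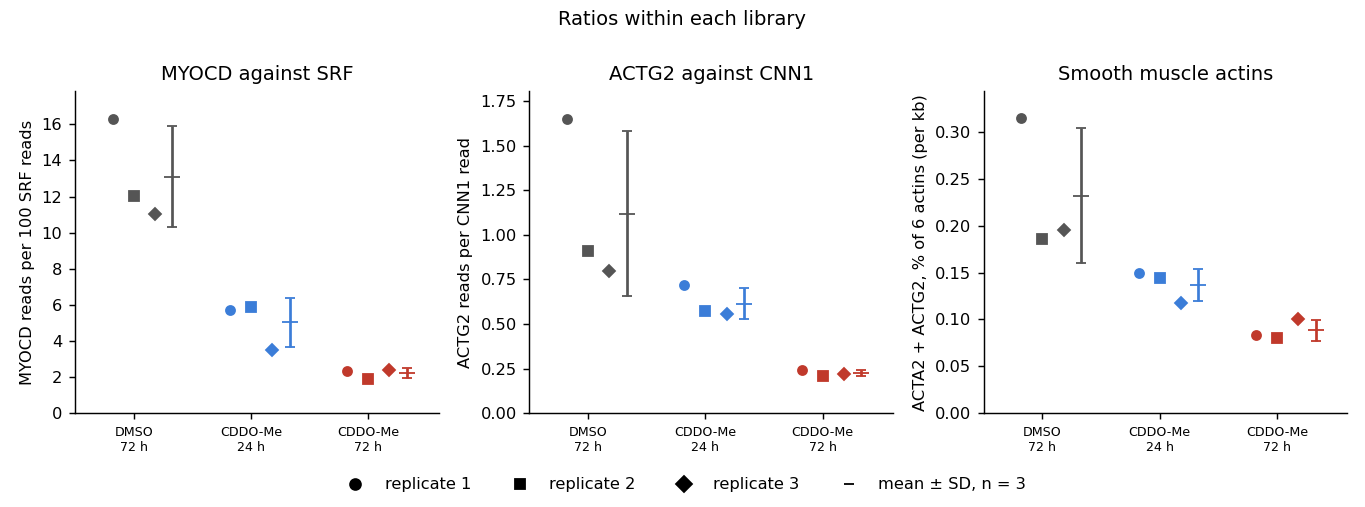
Ratios within each library: MYOCD reads per 100 SRF reads (left), ACTG2 reads per CNN1 read (middle), and ACTA2 plus ACTG2 as percent of the per-length level of 6 actin genes (right), with replicate symbols and the mean ± SD (n = 3). The groups do not overlap in any of the 3 panels, and DMSO replicate 1 is the highest library in each.

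CALD1 (caldesmon, which blocks myosin from actin; ENSG00000122786, chromosome 7, 134744252 to 134970728) held 692, 630.3 and 675 CPM in vehicle, 509, 540.2 and 498 at 24 h, and 547, 563 and 615 at 72 h. Vehicle was above both treated groups, and 72 h above 24 h, with no overlap. CALD1 fell by 0.37 ± 0.08 at 24 h (1.29-fold lower, adjusted p 0.0189). The call ended when DMSO replicate 1 (adjusted p 0.0526), DMSO replicate 3 (0.0589) or the first 24 h library (0.0663) was left out, and with only these groups in the fit (0.113). At 72 h it was at −0.21 ± 0.08 (adjusted p 0.133), and it passed without CDDO-Me 24 h replicate 3 (−0.21, adjusted p 0.0290). TPM2 (ENSG00000198467, chromosome 9, 35681992 to 35690121) held 799 to 1009.5 CPM in vehicle, 759 to 822 at 24 h and 848 to 890.2 at 72 h. Its log2 fold changes were −0.16 ± 0.09 and −0.02 ± 0.09, and it passed in no comparison under any of the settings tried (lowest adjusted p 0.237 at 24 h, 0.336 at 72 h and 0.0752 from 24 h to 72 h).

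Of the motor genes, MYLK (myosin light chain kinase, which starts contraction by phosphorylating the myosin light chain; ENSG00000065534, chromosome 3, 123610049 to 123884331) held 184, 233 and 209 CPM in vehicle, 189.5, 177 and 148 at 24 h, and 131, 135 and 129.8 at 72 h. All 72 h libraries were below all others, and the 24 h group overlapped vehicle. MYLK fell by 0.66 ± 0.10 at 72 h (1.58-fold lower, adjusted p 0.000976), which held under all 17 settings. It was at −0.28 ± 0.10 at 24 h (adjusted p 0.204; 0.00320 without DMSO replicate 1 and CDDO-Me 24 h replicate 3) and at −0.38 ± 0.10 from 24 h to 72 h (adjusted p 0.100). The latter passed without CDDO-Me 24 h replicate 3 (−0.47, adjusted p 0.00114) and in DESeq2 (adjusted p 0.0290). DMSO replicate 1, the highest vehicle library for both smooth muscle actins and TAGLN, was the lowest for MYLK. MYH11 (ENSG00000133392, chromosome 16, 15703172 to 15857033) had only 13, 21 and 14 reads in vehicle, 22, 19 and 26 at 24 h and 12, 18 and 15 at 72 h. Its log2 fold changes were 0.38 ± 0.37 and −0.07 ± 0.38 (adjusted p 0.738 and 0.953), so no change was detectable at this depth. NDE1, on the opposite strand, shares 765 exon bases with MYH11 and had 1250 to 2034 reads.

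Counted over the 10 genes, 4 fell at 24 h (MYOCD, SRF, ACTA2 and CALD1), where 1.18% of all tested genes were lower and 2.15% passed in either direction. No member was higher (0.969% of tested genes) by edgeR, DESeq2 or limma-voom, and 8 were lower and 0 higher at an unadjusted p under 0.05. The share of all tested genes at that unadjusted threshold was not counted, so unadjusted counts here and below have no background to be read against. At 72 h 4 fell (MYOCD, ACTG2, ACTA2 and MYLK) and 1 rose (CNN1), where 3.13% of all tested genes were lower, 2.89% higher and 6.02% either. From 24 h to 72 h CNN1 and SRF rose, where 0.448% of tested genes were higher and 1.02% passed in all. In that comparison no member fell (0.568% of tested genes) by edgeR or limma-voom, and 1 rose by limma-voom. By DESeq2 1 fell and 2 rose. At an unadjusted p under 0.05 in edgeR, 3 were lower and 2 higher. The median log2 fold change of the 10 genes was −0.40 at 24 h, −0.42 at 72 h and 0.04 from 24 h to 72 h, against 0.01, −0.00 and −0.01 over all tested genes. The vehicle and 24 h groups were fully apart, with 24 h lower, for 6 of the 10 genes (6.74% of tested genes) and, with 24 h higher, for 0 (6.73%). At 72 h 6 were fully apart and lower (15.2% of tested genes) and 1 fully apart and higher (15.5%). From 24 h to 72 h 3 were fully apart and lower (10.2%) and 4 were higher (10.8%). Leaving out CDDO-Me 24 h replicate 3, 5 of the 10 fell at 24 h, at 72 h 5 fell and 1 rose, and from 24 h to 72 h 2 fell and 2 rose, in fits that called 10.8, 12.9 and 12.04% of all tested genes. Without DMSO replicate 1 as well, 8 fell at 24 h, 6 fell and 1 rose at 72 h, and 3 fell and 3 rose from 24 h to 72 h, in fits that called 22.8, 17.9 and 22.8% of all tested genes.

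**Figure D4:**
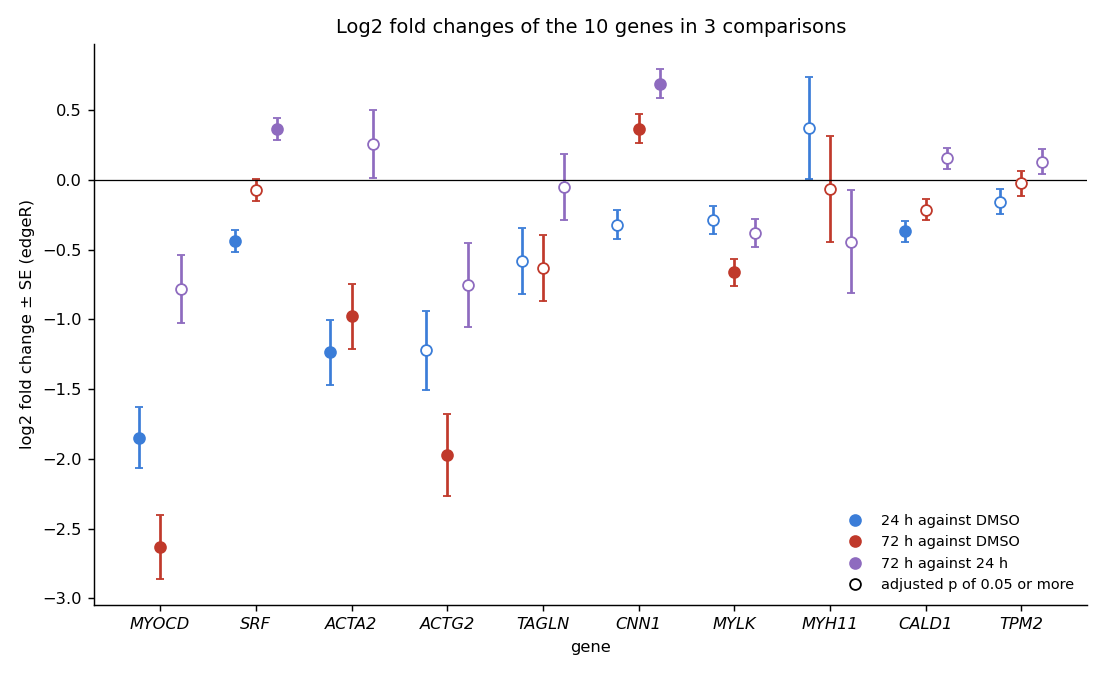
Log2 fold change ± SE (edgeR) of each of the 10 genes at 24 h against DMSO, 72 h against DMSO and 72 h against 24 h; filled points passed at an adjusted p under 0.05. MYOCD has the lowest value in both comparisons with DMSO (−1.85 and −2.63), and CNN1 is the only filled point above 0 against DMSO.

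The other regulators of the pathway changed less than MYOCD. Of 20 cofactors and regulators of SRF and smooth muscle genes 18 were tested. Of these 2 fell at 24 h, 3 fell at 72 h and 1 fell from 24 h to 72 h (medians −0.10, −0.14 and −0.00). Among all tested genes 1.18, 3.13 and 0.568% fell in these comparisons. FHL2, an LIM-domain cofactor that binds SRF and is itself an SRF target, went from 237.9 ± 21.9 CPM in vehicle to 149.5 ± 5.86 at 24 h and 143.9 ± 3.95 at 72 h (−0.67 ± 0.08 and −0.73 ± 0.08, adjusted p 0.000299 and 5.91e-05). GATA6, a transcription factor of vascular smooth muscle, went from 48.3 ± 2.52 to 32.2 ± 1.43 and 29.4 ± 0.308 CPM (−0.59 ± 0.09 and −0.71 ± 0.09, adjusted p 0.00182 and 0.000142). The FHL2 and GATA6 calls against DMSO held under all 17 settings. ELK3, a ternary complex factor that can repress SRF targets, fell at 72 h (−0.55 ± 0.10, adjusted p 0.00397) and was at −0.03 ± 0.10 at 24 h (−0.21, adjusted p 0.0421, without DMSO replicate 1 and CDDO-Me 24 h replicate 3), and its fall from 24 h to 72 h passed too (−0.51 ± 0.10, adjusted p 0.0224). That last call ended when the second 24 h library or a single 72 h library was left out (up to 0.156).

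The transcripts of the myocardin-related factors passed in no comparison. MRTFA was at 109 CPM in vehicle, 97.7 at 24 h and 103 at 72 h, and MRTFB at 48.9, 50.4 and 50.6 CPM, with adjusted p of 0.448 or more. KLF4, a repressor of smooth muscle genes, was at 12.1, 16.3 and 15.6 CPM (0.43 ± 0.14 and 0.36 ± 0.14 against DMSO, adjusted p 0.163 and 0.164). CARMN, a smooth muscle long non-coding RNA that cooperates with myocardin, was at 3.60, 2.09 and 1.76 CPM, fully apart from vehicle at both times but not past the test (adjusted p 0.479 and 0.231). MRTFA, MRTFB, KLF4 and CARMN were singled out here after their values were seen.

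Of 14 other smooth muscle contractile genes 12 were tested. Of these 2 fell at 24 h, 3 fell and 1 rose at 72 h, and 1 rose from 24 h to 72 h (medians −0.37, −0.27 and 0.06). Among all tested genes 1.18% fell at 24 h, 3.13% fell and 2.89% rose at 72 h, and 0.448% rose from 24 h to 72 h. TPM1, the tropomyosin gene paired with TPM2, fell from 510.1 ± 113 CPM to 303 ± 38.9 and 321 ± 8.02 (−0.75 ± 0.13 and −0.67 ± 0.13, adjusted p 0.0106 and 0.0103). Its 24 h call ended when the first 24 h library was left out (adjusted p 0.0511), and its 72 h call when the first or the last 72 h library was (adjusted p 0.0559 and 0.0514). MYL9, the regulatory myosin light chain that MYLK phosphorylates, fell from 499 ± 67.3 CPM to 357 ± 31.6 and 382 ± 8.52 (−0.48 ± 0.10 and −0.38 ± 0.10, adjusted p 0.0155 and 0.0293). Its 72 h call ended when DMSO replicate 1, DMSO replicate 2 or a single 72 h library was left out (adjusted p up to 0.137), and its 24 h call when the second library of vehicle or of 24 h was (up to 0.0746). MYL6, the essential light chain, rose at 72 h (0.30 ± 0.08, adjusted p 0.0405) and from 24 h to 72 h (0.43 ± 0.08, adjusted p 0.0192). PDLIM7, an actin-associated adaptor, fell at 72 h (−0.51 ± 0.14, adjusted p 0.0486). The MYL6 call against DMSO ended when DMSO replicate 2 or 3, the second 24 h library or a single 72 h library was left out (up to 0.219), and its rise from 24 h to 72 h when the first or second 24 h library or a single 72 h library was (up to 0.173). The PDLIM7 call ended when a single library other than DMSO replicate 3 was left out (up to 0.182; −0.29 without DMSO replicate 1).

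Non-muscle relatives of the members followed in part, while the striated actins ACTA1 and ACTC1 had too few reads to be tested. Of the 13 relatives 9 were tested, and 3 fell at 24 h and 2 at 72 h (medians −0.27 and −0.13). Among all tested genes 1.18 and 3.13% fell. The log2 fold change was negative for all 9 at 24 h and for 8 at 72 h. Without CDDO-Me 24 h replicate 3, 7 fell at 24 h and 4 at 72 h, in fits that called 10.8 and 12.9% of all tested genes. Without DMSO replicate 1 as well, 8 and 4 fell, in fits that called 22.8 and 17.9%. CNN2, the non-muscle relative of CNN1, fell at both times (−0.48 ± 0.09 and −0.42 ± 0.09, adjusted p 0.0106 and 0.0109), whereas CNN1 rose at 72 h. MYH9, the main non-muscle myosin heavy chain, went from 6067 ± 587 CPM to 4559 ± 462 and 4510.5 ± 59.8 (−0.41 ± 0.10 and −0.43 ± 0.10, adjusted p 0.0382 and 0.0156). The MYH9 call at 24 h ended when a single library other than DMSO replicate 3 or CDDO-Me 24 h replicate 3 was left out (up to 0.204). ACTG1 fell at 24 h (−0.53 ± 0.12, adjusted p 0.0341), a call that ended for the same 7 left-out libraries (up to 0.145). At 72 h the calls of CNN2 and MYH9 ended when DMSO replicate 2 or a single 72 h library was left out (up to 0.0672 and 0.0982), and the CNN2 call at 24 h when DMSO replicate 2 was (0.0697).

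All 8 targets of the ternary complex factor branch of SRF were tested, of which 1 fell at 24 h and 1 rose from 24 h to 72 h. Among all tested genes 1.18% fell and 0.448% rose in these comparisons. IER2 fell at 24 h (−0.62 ± 0.12, adjusted p 0.0144) and rose from 24 h to 72 h (0.56 ± 0.12, adjusted p 0.0437), and at 72 h it was at −0.06 ± 0.12 against DMSO. The fall ended when DMSO replicate 2, DMSO replicate 3 or the second 24 h library was left out (up to 0.0951). The rise ended when DMSO replicate 3, the first or second 24 h library or a single 72 h library was (up to 0.210). The list's medians were −0.86 at 24 h, −0.09 at 72 h and 0.64 from 24 h to 72 h. None of the 8 passed at 72 h in any of edgeR, DESeq2 and limma-voom, while at an unadjusted p under 0.05 edgeR had 1 lower and 0 higher. DESeq2 called 2 lower at 24 h and 3 higher from 24 h to 72 h, where it called 1.76 and 1.26% of 29683 genes in either direction. At an unadjusted p under 0.05 edgeR had 4 lower at 24 h and 5 higher from 24 h to 72 h, with no share over all genes counted. EGR1, an immediate early transcription factor gene singled out here after its values were seen, held 94.9, 358 and 342 CPM in vehicle, 90.6, 81.2 and 61.6 at 24 h and 326, 334 and 330 at 72 h. Its values of −1.77 ± 0.48 at 24 h and 2.09 ± 0.49 from 24 h to 72 h did not pass (adjusted p 0.171 and 0.149), and DMSO replicate 1 was near the 24 h libraries.

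Promoters of the other lists held complete CArG boxes in varying number, with the same search. They stood before 5 of 21 starts of the relatives, 4 of 42 of the cofactors, 1 of 22 of the other contractile genes, and 2 of 8 of the ternary complex factor targets.

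The genes whose profile over the 9 libraries was most like that of MYOCD were found by the root mean square difference of log2 CPM, each gene centred on its own mean, among 9750 genes with an average log2 CPM of at least 3. They were CEMIP (0.377), which degrades hyaluronan, TINAGL1 (0.394), a basement membrane protein gene, ACTG2 (0.421), NAV2 (0.474) and ST6GAL2 (0.476), a sialyltransferase gene. The median over all candidates was 1.12, near the 1.11 that separates MYOCD from a gene that does not change, so it is a weak yardstick. MYOCD itself lay under the floor on log2 CPM, so genes at its level were not candidates. For ACTG2 the nearest were SH3RF2 (0.176), SPOCD1 (0.287), NAV2 (0.327), ST6GAL2 (0.335) and ADAM19 (0.343), a membrane metalloprotease gene. The median was 0.844, and the distance to an unchanging gene 0.831. All of these genes were picked by likeness over the same 9 libraries that the tests use. Their falls therefore follow largely from the choice and are no separate support. NAV2 was at −0.86 ± 0.15 at 24 h and −1.68 ± 0.16 at 72 h, and ST6GAL2 at −0.80 ± 0.18 and −1.65 ± 0.19, all past the test. The NAV2 call at 24 h ended without DMSO replicate 2 (adjusted p 0.0619). That of ST6GAL2 ended in 5 settings, among them the fits that lacked the first or the second DMSO library (0.0933 and 0.0951). CEMIP was at −1.06 ± 0.34 at 24 h (adjusted p 0.233) and −2.15 ± 0.36 at 72 h (adjusted p 0.0151), and TINAGL1 at −1.16 ± 0.31 (adjusted p 0.106) and −1.92 ± 0.32 (adjusted p 0.00664). At 24 h both passed with limma-voom (0.0419 and 0.0243) and when CDDO-Me 24 h replicate 3 was left out (−0.72 and −0.80, adjusted p 9.64e-07 and 0.000871), and TINAGL1 passed with DESeq2 (0.000627). The CEMIP call at 72 h ended when a single 72 h library was left out (up to 0.0752). These distances share libraries and depth, and large differences between groups set most of their size.

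**Figure D5:**
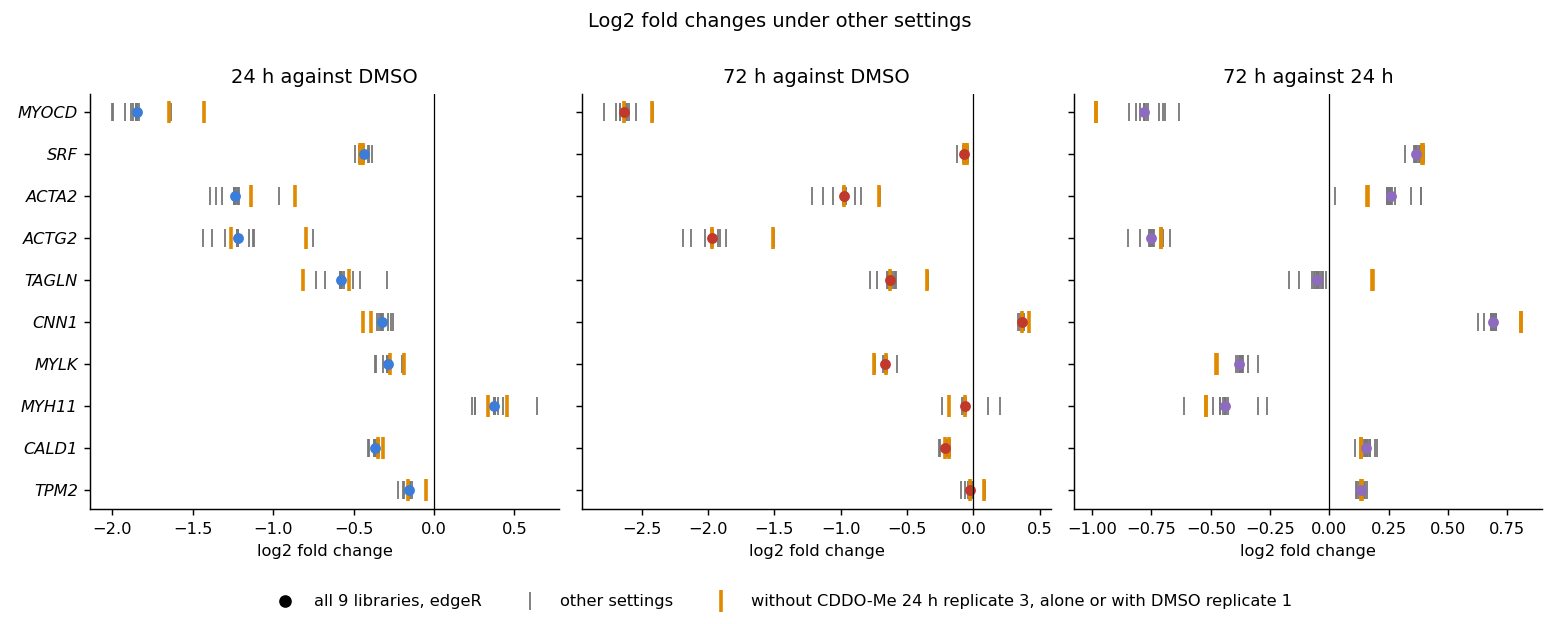
Log2 fold change of each of the 10 genes in the 3 comparisons with all 9 libraries (dots) and under 17 other settings, 16 for MYH11 (ticks; orange ticks leave out CDDO-Me 24 h replicate 3, alone or with DMSO replicate 1). MYOCD, ACTA2 and ACTG2 stay below 0 in both comparisons with DMSO under every setting drawn, and the ticks of ACTG2 reach −0.75 at 24 h and −1.50 at 72 h without DMSO replicate 1.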

How the data were processed

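Polyadenylated RNA was made into unstranded TruSeq v2 libraries, per the labels' protocols. The deposited values are raw read counts per Ensembl gene, made by the authors. Tools in the submitters' processing notes are featureCounts, Subread, SAMtools and STAR, and the build is given as GRCh38 or hg38. How strand and multi-mapped reads were handled, and the annotation release, was not given in the sources read. The deposited table also gives exon length in bases, used for CPM per kb. Symbols were matched for 57717 of 58299 identifiers. Whether the replicates came from separate cultures is unstated in the labels: the p-values cover the spread among these samples, possibly technical. Titles write CDDO where the treatment label gives CDDO-Me.

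Counts were tested with edgeR 4.0.16 (quasi-likelihood, robust, TMM scaling, filterByExpr) in R 4.3.3, in 1 fit of 9 libraries with 6 residual degrees of freedom. Adjustment was by Benjamini and Hochberg over 14965 genes. Each SE was obtained by dividing the log2 fold change by the root of the F statistic. Alternatives used DESeq2 1.42.0 and limma 3.58.1 (voom), other scaling and filters, 2 groups only, a replicate block, and fits without 1 library or without both that stood apart. The test was tested on simulated data. All members, all list counts, up to 4 passing members per list and the 5 genes nearest to MYOCD and to ACTG2 were named. Members and lists were chosen with earlier results of these data known. One further gene list is not reported here.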

Additional observations from a re-analysis of the deposited data

Results flagged for a closer look

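The response differed between the 2 times, by the test of 72 h against 24 h in the same fit, for 7 of the named genes. Among all tested genes 0.448% were higher and 0.568% lower in that test. SRF (0.37), CNN1 (0.69), MYL6 (0.43) and IER2 (0.56) were higher at 72 h than at 24 h. ELK3 (−0.51), NAV2 (−0.82, adjusted p 0.0254) and ST6GAL2 (−0.85, adjusted p 0.0458) were lower. NAV2 and ST6GAL2 had been chosen by their profile in these same libraries. Time of treatment and time in culture cannot be told apart for these genes, since the only vehicle group was kept for 72 h. The call of CNN1 held under all 17 alternative settings, and those of the other 6 did not: NAV2 (adjusted p up to 0.173) and ST6GAL2 (up to 0.258) lost theirs, among others, when a single 72 h library was left out.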

How the results depend on the processing

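The number of the 10 genes past the threshold at 24 h was 4, and it was 2 with only the 2 groups compared in the fit, 8 without both libraries that stood apart, and 3 to 5 when 1 library was left out. At 72 h it was 5, and 3 to 6 when 1 library was left out. From 24 h to 72 h it was 2, and it was 1 with limma-voom, 4 with no filter on low counts, 6 without both libraries, and 1 to 4 when 1 library was left out. The only reversed sign among passing values was that of TAGLN from 24 h to 72 h, at 0.18 without both libraries. Over all genes the counts of 321, 901 and 152 ranged from 100 to 3464, 401 to 2724 and 32 to 3471. Of 507 alternative values for the members 456 kept their side of the threshold, 24 lost a call and 26 gained one. With the replicate number as a block the counts were 5, 5 and 2, ACTG2 passed at 24 h (−1.15, adjusted p 0.0146), MYH9 at 24 h did not (adjusted p 0.0511) and CEMIP at 72 h did not (adjusted p 0.0539). Same-numbered libraries had correlations of −0.0277 to 0.0822 between their deviations, and other pairs −0.109 to 0.0403. DMSO libraries mostly correlated best with their own number among treated libraries, while 24 h and 72 h libraries mostly did not with each other. The main fit did not pair samples by number, and a weak pairing was not excluded. The block fit called 358, 963 and 219 of all tested genes. The stricter filter removed MYH11. Depth limits MYH11, with 12 to 26 reads per library.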
